A study of Mus musculus with 12 samples.

Results

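A set of 9 genes of myoblast adhesion and fusion was followed in the mouse myoblast line C2C12: the adhesion genes Cdh15, Cdh2, Ncam1 and Jam2, the fusion gene Mymk, the ferlins Myof and Dysf, and the membrane-shaping genes Cav3 and Bin1. Every probe whose symbol in the deposited array table was 1 of these 9 genes was taken, Mymk under its older symbol Tmem8c, which gave 9 of 27306 symbols and 18 of the 56745 probes in the table. Of the 18, 16 were tested, namely those bright enough on all 3 arrays of at least 1 group. The other two, Cdh2 A_55_P2720238 and Myof A_55_P2730686, were well above background on 5 and 0 of the 12 arrays and on all 3 arrays of no group. Among the tested probes, Ncam1 A_52_P668157 met that condition through siControl cells at day 2 alone.

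C2C12 is an established line of C3H mouse muscle myoblasts that forms multinucleate myotubes when serum is lowered at confluence. All cells were transfected with an siRNA, either siControl or siBach1, the latter against the transcriptional repressor Bach1, and 24 hours later confluent cultures were moved to medium with 2% horse serum to start differentiation. Cells were harvested at day 0 or day 2, which made 4 groups of 3 arrays each (siControl day 0, siBach1 day 0, siControl day 2 and siBach1 day 2). A single siRNA sequence against Bach1 was used on the arrays, according to the study's methods, and nothing in the labels says whether the replicates were separate cultures, so p-values measure the spread between these samples, which may be technical.

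Myoblasts first recognise and align with each other through cadherins and immunoglobulin-type adhesion molecules, and their plasma membranes then merge under the action of muscle-specific membrane proteins. Cadherins bind the same cadherin on a neighbouring cell and are tied to actin through catenins, whereas Mymk encodes myomaker, a membrane protein that myoblasts need to fuse. Ferlins are calcium-binding proteins of membrane fusion and repair, and caveolin-3 and Bin1 shape the muscle cell membrane and its inward tubules.

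Each array's level is given as log2 signal, the log2 of the background-subtracted spot intensity minus the 75th percentile of all probes on that array, so that 0 marks that percentile and levels of different probes are not comparable. The Feature Extraction software that read the scanned arrays marked 47.6% to 58.9% of an array's probes as well above background. The silencing showed at the targeted gene: Bach1 was 3.42-fold lower in siBach1 than in siControl cells at day 0 (adjusted p = 1.2e-05) and 3.91-fold lower at day 2 (adjusted p = 1.4e-05). Hmox1, the haem oxygenase gene that Bach1 represses, was 9.85-fold and 8.72-fold higher. Of 11 skeletal muscle markers, 10 were so marked on all 12 arrays and Myf5 on 2 of 3 arrays in each group. Of 15 markers of other cell types, 5 were above background on all 12 arrays (Cebpa of adipocytes, Ptprc and Cd68 of blood cells, Snap25 and Tubb3 of neurons), 4 on 0 arrays (Adipoq of adipocytes, Cdh5 and Tek of endothelium, Rbfox3 of neurons) and 6 on 1 to 11 arrays. Replicates 1 and 2 lay on 1 slide and replicate 3 on another, and every condition occupied a fixed column of both slides, so an effect of array position cannot be separated from one of condition.

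From day 0 to day 2, most adhesion and fusion genes rose, whichever siRNA the cells had received. Read by each gene's brightest probe, Cav3, Mymk and Dysf rose most in both siRNA groups, Ncam1 and Cdh2 rose by less, and Jam2 fell. Cdh15 and Bin1 rose in siControl cells and did not pass in siBach1 cells, whereas Myof fell in siBach1 cells and did not pass in siControl cells. When these changes were compared between the siRNA groups, Cdh15 passed (-0.71, limma adjusted p = 0.014). Bin1 (-0.45, adjusted p = 0.34) and Myof (-0.15, adjusted p = 0.60) did not, and the other Bin1 probe rose in both groups. In siControl cells 15 of the 16 tested probes passed at an adjusted p under 0.05 (limma, Benjamini-Hochberg over 29644 probes), against 53.4% of all probes tested. Of these, 13 rose, against 24.7% of all probes, 2 fell, against 28.7%, and 11 rose at least 2-fold, against 10.5%. In siBach1 cells 14 probes passed, against 56.1%, of which 12 rose, against 23.8%, 2 fell, against 32.2%, and 9 rose at least 2-fold, against 10.9%. Because Ncam1 A_52_P668157 was tested only through a group in which it was high, the counts were also taken over the 14 member probes above background on all 12 arrays. Of these 14, 11 rose and 2 fell in siControl cells, against 24.3% and 32.3% of 24800 such probes, and 10 rose and 2 fell in siBach1 cells, against 22.3% and 37%. The median change of the 16 probes was 1.51 on the log2 scale in siControl and 1.29 in siBach1 cells, and that of all probes 0.004 and -0.067. Several of the 16 probes share a gene, and the 13 and the 12 that rose were of 7 genes each. Over the brightest probe of each of the 9 genes the median was 1.38 in siControl but 0.48 in siBach1 cells. Differences between groups in such RNA cannot tell fewer cells of a type from less RNA per cell.

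**Figure D1:**
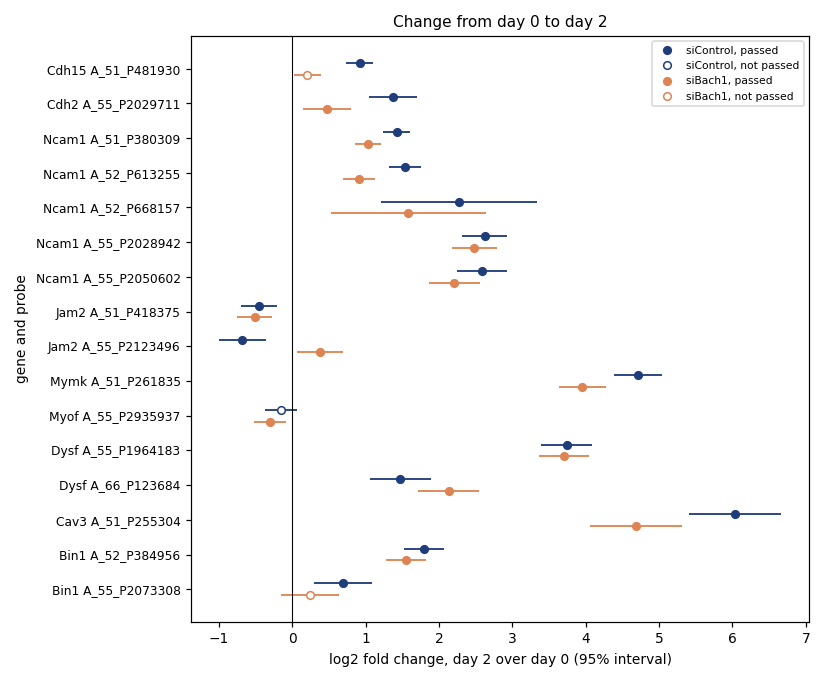
Log2 fold change from day 0 to day 2 for the 16 tested probes, in siControl (blue) and siBach1 cells (orange), with 95% intervals from the limma fit. Filled points passed at an adjusted p under 0.05. Cav3 (6.04 and 4.69) and Mymk (4.71 and 3.95) lie farthest to the right, and both Jam2 probes (in siControl cells) and the Myof probe lie left of 0. For Ncam1 A_52_P668157, below background at day 0, the fitted change is no measured size.

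Cdh15 encodes M-cadherin, a cadherin of myoblasts and muscle stem cells. Its promoter, the 250 bases before the transcription start (RefSeq, GRCm38.p6, chr8:122848124-122848373, plus strand), is shown because the gene gave the clearest dependence of the silencing effect on the day. Capitals mark the letters CANNTG, the E-box read by MyoD and myogenin and by other basic helix-loop-helix factors, which stood at 236, 135 and 32 bases before the start. CANNTG reads the same on both strands, and 66.2% of 32851 promoters of this length hold it. The match at 32 bases before the start, CACGTG, and the others are letter matches and not measured sites.
Cdh15 promoter: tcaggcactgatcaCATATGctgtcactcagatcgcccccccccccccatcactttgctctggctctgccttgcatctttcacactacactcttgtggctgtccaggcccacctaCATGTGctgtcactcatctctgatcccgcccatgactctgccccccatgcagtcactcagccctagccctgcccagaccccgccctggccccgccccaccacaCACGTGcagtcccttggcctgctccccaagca

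In siControl cells Cdh15 (probe A_51_P481930) read 5.80, 5.88 and 5.93 at day 0 and 6.68, 6.81 and 6.88 at day 2. With siBach1 it read 6.33, 6.32 and 6.33 at day 0 and 6.46, 6.47 and 6.67 at day 2. The siBach1 cells thus stood above every siControl array at day 0 and below every siControl array at day 2, with no overlap between any of the 4 groups. At day 0 Cdh15 was 1.37-fold higher in siBach1 cells (log2 0.45 ± 0.09 SE, adjusted p = 0.0052), a call kept in 6 of 6 fits that left out an array. At day 2 the difference was -0.26 ± 0.09 on the log2 scale and did not pass (adjusted p = 0.080), but passed with replicate as a block (adjusted p = 0.028). Differentiation raised Cdh15 1.89-fold in siControl cells (adjusted p = 8.3e-06). In siBach1 cells the change was 0.21 and did not pass (adjusted p = 0.060), though it did with the block (adjusted p = 0.022) and, at 0.57, under quantile normalization (adjusted p = 0.00012).

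Cdh2, which encodes N-cadherin, the cadherin of neural and muscle precursors, gave values of 3.74, 3.69 and 3.96 in siControl cells at day 0 (probe A_55_P2029711). With siBach1 it gave 4.48, 4.41 and 4.95 at that day. At day 2 the values were 5.21, 5.04 and 5.27 in siControl and 5.01, 5.00 and 5.25 in siBach1 cells. The day 0 groups did not overlap, siBach1 replicate 3 being the highest, whereas the day 2 groups did. Cdh2 was 1.76-fold higher with siBach1 at day 0 (log2 0.82 ± 0.15 SE, adjusted p = 0.0043), a call kept in 6 of 6 fits without an array, and differed by -0.08 at day 2 (95% interval -0.41 to 0.25, adjusted p = 0.78). It rose 2.60-fold on differentiation in siControl cells (adjusted p = 2.3e-05) and 1.39-fold in siBach1 cells (adjusted p = 0.018). The latter call was lost without siBach1 day 0 replicate 1 (log2 0.41), day 0 replicate 2 (0.37) or day 2 replicate 3 (0.40).

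Ncam1 encodes the neural cell adhesion molecule, an immunoglobulin-type protein that carries polysialic acid in developing muscle, and 5 probes of the array bear its symbol. Of these, 4 were above background on all 12 arrays and rose on differentiation in both siRNA groups, but by different amounts. The 2 probes with accession NM_001113204, A_51_P380309 and A_52_P613255, rose by 1.42 and 1.54 on the log2 scale in siControl cells and by 1.03 and 0.91 in siBach1 cells. The 2 probes with NM_010875, A_55_P2028942 and A_55_P2050602, rose by 2.62 and 2.58 in siControl and by 2.48 and 2.21 in siBach1 cells. The highest adjusted p of these 8 changes was 2.2e-05. The remaining probe, A_52_P668157, was not well above background on any day 0 array. Its day 2 level was at least 1.41-fold that of day 0 in siControl cells and at least 1.38-fold in siBach1 cells, where 2 of 3 arrays measured it, and no p is given because its day 2 level had brought it into the test.

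The Ncam1 probes also disagreed on silencing. The brightest, A_51_P380309, read 3.27, 3.18 and 3.28 in siControl and 3.59, 3.45 and 3.60 with siBach1 at day 0, and it read 4.71, 4.57 and 4.71 against 4.63, 4.48 and 4.63 at day 2. The groups were apart at day 0 and overlapped at day 2. The day 0 difference of 0.30 ± 0.08 SE passed (adjusted p = 0.031), but among fits without an array it passed only without siBach1 day 0 replicate 2 (0.35), the other 5 giving 0.27 to 0.32. A_52_P613255 read 4.10, 4.01 and 4.21 in siControl against 3.54, 3.81 and 3.72 in siBach1 cells at day 2. These groups did not overlap, and the difference of -0.42 ± 0.10 passed (adjusted p = 0.022), but among fits without an array it passed only without siControl day 2 replicate 2 or siBach1 day 2 replicate 2, the other 4 giving -0.43 to -0.34. Of the remaining 3 probes none passed at either day, with adjusted p between 0.12 and 0.95. Without siBach1 day 0 replicate 2, A_52_P668157 (1.45 in place of 0.92, adjusted p = 0.044) and A_55_P2028942 (0.47 in place of 0.35, adjusted p = 0.048) passed at day 0, the former with all day 0 arrays below background and at 0.28 without replicate 3. With replicate as a block A_55_P2028942 passed at day 0 (0.35, adjusted p = 0.019) and A_55_P2050602 at day 2 (-0.36, adjusted p = 0.050).

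Jam2 encodes a junctional adhesion molecule of the immunoglobulin superfamily, and its 2 probes disagreed on silencing. A_51_P418375 (NM_023844) read 4.06, 4.06 and 3.85 in siControl and 4.09, 3.99 and 4.13 in siBach1 cells at day 0. At day 2 it read 3.41, 3.43 and 3.77 in siControl and 3.53, 3.54 and 3.61 in siBach1 cells. The days did not overlap and the siRNA groups did. It fell by 0.45 on the log2 scale on differentiation in siControl cells (adjusted p = 0.0048) and fell by 0.51 in siBach1 cells (adjusted p = 0.0022), whereas the siRNA groups differed by 0.08 at day 0 (95% interval -0.16 to 0.32) and 0.02 at day 2 (-0.22 to 0.26), neither passing.

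The other Jam2 probe, A_55_P2123496, has the accession AK045095, which was not among the RefSeq accessions matched here. It read -0.91, -0.86 and -0.71 in siControl and -1.92, -2.22 and -2.37 with siBach1 at day 0, and -1.49, -1.70 and -1.32 against -1.92, -1.85 and -1.59 at day 2. All siBach1 arrays lay below all siControl arrays at day 0, and the groups overlapped at day 2. This probe was 2.54-fold lower with siBach1 at day 0 (log2 -1.34 ± 0.14 SE, adjusted p = 0.00018), the only member probe with a passing silencing difference of 2-fold or more (1.99% of all probes were lower by this rule), and it differed by -0.28 at day 2 (adjusted p = 0.23). On differentiation it fell by 0.68 in siControl cells (adjusted p = 0.0022) and rose by 0.38 in siBach1 cells (adjusted p = 0.041). The rise was lost without siBach1 day 0 replicate 2 (0.36) or 3 (0.28), or day 2 replicate 2 (0.41) or 3 (0.28), and was 0.23 under quantile normalization (adjusted p = 0.24).

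**Figure D2:**
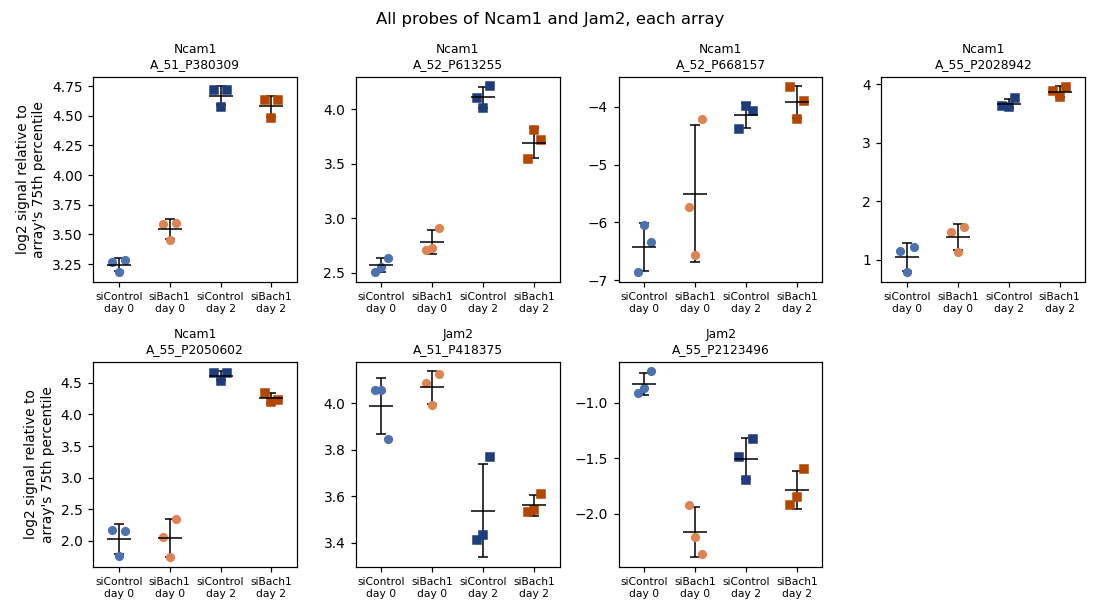
Log2 signal of the 5 Ncam1 and 2 Jam2 probes on each of the 12 arrays (circles day 0, squares day 2, blue siControl, orange siBach1), with the mean and SD of the 3 arrays in black and a separate scale for each probe. Every Ncam1 probe is higher at day 2, and A_55_P2123496 of Jam2 is lowest in siBach1 cells at day 0 while A_51_P418375 overlaps there.

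Mymk (probe A_51_P261835) read 1.36, 1.01 and 1.01 in siControl and 1.59, 1.22 and 1.08 in siBach1 cells at day 0. At day 2 it read 5.81, 5.90 and 5.80 in siControl and 5.37, 5.28 and 5.09 in siBach1 cells. The day 0 groups overlapped, and every siBach1 array at day 2 lay below every siControl array. Mymk rose 26.2-fold on differentiation in siControl cells (log2 4.71 ± 0.14 SE, adjusted p = 1.4e-08) and 15.5-fold in siBach1 cells (3.95 ± 0.14, adjusted p = 3.1e-08). At day 0 the siRNA groups differed by 0.17 (95% interval -0.15 to 0.49, adjusted p = 0.47). At day 2 Mymk was lower with siBach1 (log2 -0.59 ± 0.14, adjusted p = 0.027). That call was lost in each of the 6 fits without an array of either day 2 group, in which the difference ran from -0.65 to -0.51 and the adjusted p from 0.052 to 0.086, and under quantile normalization (-0.44, adjusted p = 0.081). Myog, the myogenin gene of the differentiation programme, was 1.97-fold lower with siBach1 at day 2 (adjusted p = 0.017), and the summed linear level of the 11 muscle markers, Mymk included, was 1332 to 1585 in siBach1 against 1980 to 2150 in siControl cells. Ckm, taken with Myog as a check of differentiation, did not pass for silencing at day 2 (-0.24, adjusted p = 0.57). It rose 108-fold in siControl and 110-fold in siBach1 cells. The part of the lower Myog and summed marker levels in the Mymk difference was not tested.

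Myof encodes myoferlin, a ferlin of myoblasts. Probe A_55_P2935937 read 5.06, 5.06 and 5.17 in siControl and 5.58, 5.36 and 5.50 with siBach1 at day 0, and 4.91, 4.81 and 5.10 against 5.21, 5.07 and 5.23 at day 2. The siBach1 arrays were all higher at day 0, and at day 2 the groups overlapped slightly. The day 0 difference of 0.38 ± 0.10 SE passed (1.30-fold, adjusted p = 0.024), and among fits without an array it passed only without siControl day 0 replicate 3 or siBach1 day 0 replicate 2, the other 4 giving 0.33 to 0.37. The day 2 difference was 0.23 (adjusted p = 0.16), and it passed under 1 of 17 alternative settings and in 0 of 6 fits without an array. Myof did not pass on differentiation in siControl cells (-0.16, adjusted p = 0.21) and fell by 0.31 in siBach1 cells (adjusted p = 0.021), a call lost without siBach1 day 0 replicate 1 (-0.26) or day 2 replicate 2 (-0.26) and reversed in sign, at 0.02, under quantile normalization.

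Dysf encodes dysferlin, the ferlin that reseals the torn membrane of muscle fibres. Probe A_55_P1964183 read -0.26, -0.76 and -0.28 in siControl and -0.25, -0.74 and -0.29 with siBach1 at day 0, and 3.31, 3.26 and 3.36 against 3.26, 3.30 and 3.28 at day 2. The days were far apart, and the siRNA groups lay on top of each other. Dysf rose 13.4-fold in siControl cells (adjusted p = 5.0e-08) and 13.1-fold in siBach1 cells (adjusted p = 5.9e-08). The siRNA groups differed by 0.002 at day 0 (95% interval -0.34 to 0.34) and -0.03 at day 2 (-0.37 to 0.31). The other probe, A_66_P123684, of the same accession NM_001077694, rose by 1.47 and 2.13 and did not pass for silencing (-0.41 at day 0, where 2 of 3 siBach1 arrays were above background, and 0.25 at day 2). Without siControl day 0 replicate 1 the day 0 value was -0.64 and passed (adjusted p = 0.022). Its rises were 0.87 and 1.04 with normexp background correction.

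Cav3 encodes caveolin-3, the caveolin of muscle, which coats the flask-shaped pits of the muscle cell membrane. Its promoter (RefSeq, GRCm38.p6, chr6:112459255-112459504, plus strand) and the 2 promoters of Dysf (chr6:84008348-84008597 and chr6:84019136-84019385, plus strand) are set together because these genes rose steeply in both siRNA groups. CANNTG, in capitals, stood in the Cav3 promoter as CATGTG at 174 and as CAGCTG at 106 bases before the start, and CAGCTG was in 13% of all promoters of this length. Neither Dysf window held CANNTG, nor did that of Myof (chr19:38043578-38043827, minus strand), which says only that the letters are not in these 250 bases. CACCTG, another E-box, was found on neither strand of the 5 windows, against 17.2% of all promoters. TGANTCA, the core letters of the sites that Bach1 and small Maf proteins bind, was likewise found in none, against 6.75% of all promoters. Mymk, Ncam1 and Jam2 were not matched in the promoter table, and no promoter of Cdh2 or Bin1 was searched.
Cav3 promoter: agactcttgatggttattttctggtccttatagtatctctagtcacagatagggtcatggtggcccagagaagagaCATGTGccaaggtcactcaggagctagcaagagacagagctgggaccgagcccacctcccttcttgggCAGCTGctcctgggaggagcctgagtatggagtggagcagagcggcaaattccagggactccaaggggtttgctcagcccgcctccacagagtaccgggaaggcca
Dysf promoter, upstream: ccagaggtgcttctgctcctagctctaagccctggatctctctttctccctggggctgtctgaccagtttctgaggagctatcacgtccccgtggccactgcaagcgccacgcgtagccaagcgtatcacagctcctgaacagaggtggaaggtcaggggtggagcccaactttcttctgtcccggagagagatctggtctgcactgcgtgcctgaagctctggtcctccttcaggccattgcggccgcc
Dysf promoter, downstream: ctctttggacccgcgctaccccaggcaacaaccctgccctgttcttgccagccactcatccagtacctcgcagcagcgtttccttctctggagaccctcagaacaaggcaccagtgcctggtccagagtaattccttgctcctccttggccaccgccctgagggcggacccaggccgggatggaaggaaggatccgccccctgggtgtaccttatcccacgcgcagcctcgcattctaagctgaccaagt

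Cav3 (probe A_51_P255304) read -2.62, -3.81 and -3.68 in siControl and -2.77, -2.83 and -2.47 in siBach1 cells at day 0. At day 2 it read 2.94, 2.61 and 2.45 in siControl and 2.26, 1.91 and 1.81 in siBach1 cells. The siRNA groups overlapped at day 0 through siControl replicate 1 and did not overlap at day 2, when siBach1 cells were lower. Cav3 rose 65.6-fold in siControl cells (log2 6.04 ± 0.28 SE, adjusted p = 1.1e-07) and 25.7-fold in siBach1 cells (4.69 ± 0.28, adjusted p = 5.0e-07). With normexp correction, which adds an offset to dim spots, these changes were 4.73 and 3.77. Neither silencing difference passed, at 0.68 ± 0.28 (adjusted p = 0.13) at day 0 and -0.67 ± 0.28 (adjusted p = 0.15) at day 2. Without siControl day 0 replicate 1 the day 0 difference was 1.05 and passed (adjusted p = 0.0069), and with normexp correction the day 2 difference was -0.62 and passed (adjusted p = 0.034).

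Bin1 encodes amphiphysin 2, a membrane-bending protein needed for the inward tubules of muscle fibres, and both of its probes carry the accession NM_009668. A_55_P2073308 read 6.5, 6.38 and 6.16 in siControl and 6.42, 6.28 and 6.42 with siBach1 at day 0, and 7.10, 6.96 and 7.04 against 6.78, 6.92 and 6.14 at day 2. Replicate 3 of siBach1 at day 2 stood below the other day 2 arrays. This probe rose 1.61-fold in siControl cells (adjusted p = 0.0077). In siBach1 cells the change was 0.24 (adjusted p = 0.29), or 0.48 without the low array (adjusted p = 0.0066) and 0.61 under quantile normalization (adjusted p = 0.019). A_52_P384956 rose by 1.80 in siControl cells (adjusted p = 1.1e-06) and by 1.55 in siBach1 cells (adjusted p = 2.7e-06). Neither probe passed for silencing at either day, the 4 differences running from -0.42 (A_55_P2073308 at day 2, or -0.19 without the low array) to 0.31, although A_52_P384956 at day 0 (0.31, adjusted p = 0.12) passed with replicate as a block (adjusted p = 0.034).

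**Figure D3:**
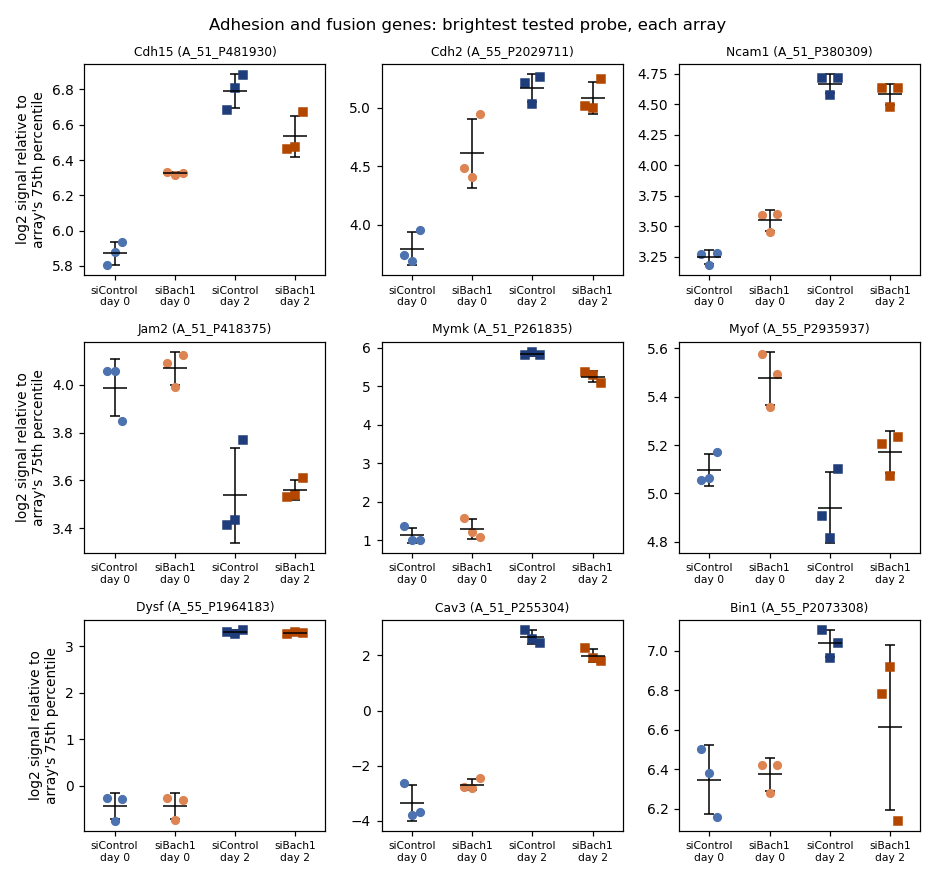
Log2 signal of the brightest tested probe of each of the 9 genes on each of the 12 arrays (circles day 0, squares day 2, blue siControl, orange siBach1), with the mean and SD of 3 arrays in black. Cdh15, Cdh2 and Myof are higher in siBach1 than in siControl cells at day 0, Mymk is lower at day 2, and Dysf does not separate by siRNA.

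Across the 16 tested probes, the siBach1 cells before differentiation had more Cdh15, Cdh2, Myof and, by 1 probe, Ncam1 RNA, and less of the RNA read by A_55_P2123496 of Jam2. These 5 probes passed, against 17.1% of all probes tested at day 0. The 4 that were higher compare with 8.75% of all probes, and the 1 that was lower with 8.34%. The groups did not overlap for 7 of the 16 probes, against 37.2% of all probes. At day 2 Mymk and Ncam1 A_52_P613255 passed, both lower with siBach1, which makes 2 of 16 against 12% of all probes, with 6.29% of all probes lower. The day 2 groups did not overlap for 8 of the 16, against 32.8%. With replicate as a block 4 probes passed at day 2, against 21.3% of all probes. Without the block 7 probes had an unadjusted p under 0.05, a count for which no share of all probes is given, so it is no result about these genes. The median silencing difference of the 16 probes was 0.26 at day 0 and -0.09 at day 2, beside 0.09 and -0.01 for all probes. At day 0 the summed level of the neuron list (Rbfox3, Snap25, Tubb3) was 11.6 to 14.2 in siBach1 against 20.7 to 22.2 in siControl cells, with Snap25 and Tubb3 above background on 12 arrays and Rbfox3 on 0, and that of the blood list (Ptprc, Cd68, Spi1) was 5.33 to 5.83 against 4.36 to 5.48, with Ptprc and Cd68 above background on 12 arrays and Spi1 on 1. The part of these in the day 0 differences was not tested.

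**Figure D4:**
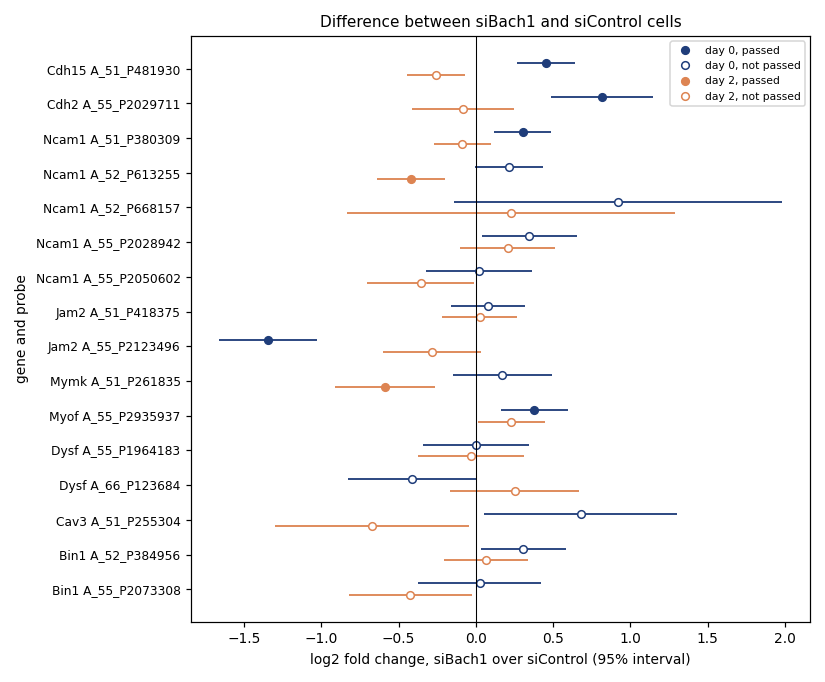
Log2 fold change of siBach1 over siControl cells for the 16 tested probes at day 0 (blue) and day 2 (orange), with 95% intervals from the limma fit. Filled points passed at an adjusted p under 0.05. At day 0 the probes of Cdh15, Cdh2, Myof and Ncam1 A_51_P380309 lie right of 0 and Jam2 A_55_P2123496 lies left at -1.34, and at day 2 the filled points are Mymk (-0.59) and Ncam1 A_52_P613255 (-0.42).

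Whether the silencing effect changed with differentiation was tested as the difference between the day 2 and the day 0 effects. It passed for 4 of 16 probes, against 4.57% of all probes, 1 above 0 (2.39% of all probes) and 3 below (2.19%). Cdh15 gave -0.71 ± 0.12 SE (adjusted p = 0.014), a call kept in 12 of 12 fits without an array. Jam2 A_55_P2123496 gave 1.06 ± 0.20 (adjusted p = 0.020), kept in 11 of 12 and lost without siControl day 0 replicate 3 (1.00, adjusted p = 0.051). Cdh2 gave -0.90 ± 0.21 (adjusted p = 0.041), which passed only without siBach1 day 0 replicate 2 or 3, the other 10 fits giving -0.98 to -0.84. Ncam1 A_52_P613255 gave -0.63 ± 0.14 (adjusted p = 0.032), which passed only without siBach1 day 0 replicate 1, siControl day 2 replicate 2 or siBach1 day 2 replicate 2, the other 9 giving -0.67 to -0.56.

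Mymk (-0.76, adjusted p = 0.064), Cav3 (-1.35, adjusted p = 0.083) and Ncam1 A_51_P380309 (-0.39, adjusted p = 0.086) did not pass. They passed with replicate as a block, at adjusted p = 0.017, 0.033 and 0.017, which made 7 probes, against 13% of all probes with the block. Cav3 also passed without siControl day 0 replicate 1 (-1.72, adjusted p = 0.022). Both slides gave the same sign for Cdh15 (-0.76 on the slide with 2 arrays a group, -0.60 on the slide with 1), for Cdh2 (-0.84 and -1.01), for Mymk (-0.74 and -0.79) and for Cav3 (-1.10 and -1.85). The slides are parts of the arrays that gave the tested values, so their agreement is no separate support. The difference was below 0 for 14 of the 16 probes, beside 58.2% of all probes, and for 11 of 16 under quantile normalization, where Jam2 A_51_P418375, Myof and Dysf A_55_P1964183 were above 0. The median was -0.38 over the 16 probes and -0.07 over all probes.

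The same arrays held other genes of adhesion and fusion, in 4 lists read by the brightest tested probe of each gene. Of 8 tested cadherin partners, 3 rose and 2 fell on differentiation in siControl cells, against 27.7% and 30.0% of 15636 genes. Cdon, a cell surface receptor that binds cadherins, rose by 1.11 (0.70 in siBach1 cells), Jup, plakoglobin, by 0.97 (0.72), and Ctnna1, alpha-catenin, by 0.47, while Neo1, the netrin receptor neogenin, changed by -0.86 (-0.95). In siBach1 cells 2 rose and 2 fell, against 26.7% and 33.2% of all genes. With silencing 1 of the 8 passed at each day, against 19.9% of all genes at day 0 and 13.8% at day 2. At both days it was Ctnnd1, p120 catenin, at -0.53 (adjusted p = 0.0098) and -0.40 (adjusted p = 0.045). The day 2 call was lost under quantile normalization and in 5 of 6 fits without an array, in which the value ran from -0.53 to -0.32 over all 6. With replicate as a block 3 passed at day 0 and 2 at day 2, against 30.6% and 23.7% of all genes with the block.

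Among 13 tested other cell surface proteins, 7 rose and 1 fell in siControl cells (27.7% and 30.0% of all genes), and 6 rose and 2 fell in siBach1 cells (26.7% and 33.2%). Mymx, the small fusion protein myomixer (Gm7325 in the table), rose by 6.14 in siControl and 5.78 in siBach1 cells, and its silencing differences did not pass at either day. Itga4, the alpha-4 integrin subunit, rose by 2.57 and 1.38, and Itgb1, its beta subunit, by 0.89 and 0.62. At day 2 Itga4 was lower with siBach1 (-0.81, adjusted p = 0.044), a call lost in 6 of 6 fits without an array (-0.94 to -0.69). Cd9, a tetraspanin, was lower at day 2 (-0.60, adjusted p = 0.0027, kept in 6 of 6), and its day 2 effect minus its day 0 effect was -0.57 (adjusted p = 0.034). The latter call was lost in 10 of 12 fits without an array (-0.65 to -0.52 over all 12), passing only without siControl day 2 replicate 1 or siBach1 day 2 replicate 3, and was also lost with no filter, normexp correction or quantile normalization. Jam3, the binding partner of Jam2, was higher at day 2 (0.31, adjusted p = 0.050), a call lost in 6 of 6 such fits (0.24 to 0.37). The gene that passed at day 0 was St8sia4, a polysialic acid synthase, at -0.58 (adjusted p = 0.011). That call was kept in 6 of 6 fits without an array, but lost with no filter, normexp correction or the methods' t-test once adjusted. In all, 1 gene of this list passed at day 0 and 3 at day 2, against 19.9% and 13.8% of all genes.

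Of 14 tested genes of actin signalling, 3 rose and 6 fell in siControl cells (27.7% and 30.0% of all genes), and 3 rose and 5 fell in siBach1 cells (26.7% and 33.2%). Trio, a Rac activator, rose by 1.15 and 1.42, while Dock5 fell by 0.82 in siControl cells. With silencing Wasl, the actin nucleation activator N-WASP, was lower at day 0 (-1.05, adjusted p = 0.00018) and day 2 (-0.55, adjusted p = 0.011), as was Trio (-0.76, adjusted p = 0.00093, and -0.49, adjusted p = 0.015). Crk, an adaptor protein, was higher at both (0.61, adjusted p = 0.00084, and 0.39, adjusted p = 0.015). These 3 calls were kept at day 0 in 6 of 6 fits without an array. At day 2 Wasl was lost without siBach1 replicate 1, Trio without siControl replicate 3 or siBach1 replicate 2, and Crk without siControl replicate 3 or siBach1 replicate 1. The effect differed between days for Dock5 (0.75, adjusted p = 0.024), kept in 5 of 12 fits without an array, and for Wasf2, an actin regulator of the WAVE family (-0.62, adjusted p = 0.026), kept in 3 of 12.

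Of 16 tested genes of caveolae, ferlins and membrane repair, 6 rose and 5 fell in siControl cells (27.7% and 30.0% of all genes), and 4 rose and 6 fell in siBach1 cells (26.7% and 33.2%). Cav1 and Cav2, the caveolins of most other cell types, changed by -1.54 and -1.85 in siControl and by -2.08 and -2.04 in siBach1 cells, all passing and opposite in direction to Cav3. Trim72, which nucleates membrane repair, differed by 3.38 and 3.31, with 2 of 3 siControl and 1 of 3 siBach1 arrays above background at day 0, so that neither is a measured size. The Trim72 probe entered the test through day 2, where it was high, and is counted among the 6 and the 4 that rose. Cavin4, a muscle cavin (Murc in the table), rose by 2.98 and 2.44 and Capn3, a muscle calpain, by 2.64 and 1.71. At day 0 Capn3 was higher with siBach1 (0.81, adjusted p = 0.00012), as was Cav2 (0.53, adjusted p = 0.010). At day 2 Cavin4 was lower (-0.61, adjusted p = 0.0081), as was Anxa6, an annexin (-0.55, adjusted p = 0.0077). Anxa6 was also lower at day 0 (-0.34, adjusted p = 0.042), and its difference between days did not pass (-0.20, adjusted p = 0.46). The silencing effect on Capn3 differed between days by -0.93 (adjusted p = 0.0049), a call kept in 12 of 12 fits without an array. In all, 4 genes of this list passed at day 0, 2 at day 2 and 1 for the difference between days, against 19.9%, 13.8% and 5.81% of all genes, and 7, 3 and 3 with replicate as a block, against 30.6%, 23.7% and 15.3%. Over all genes, 10.0% were higher and 9.86% lower at day 0, 6.37% and 7.43% at day 2, and 3.08% and 2.72% for the difference.

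**Figure D5:**
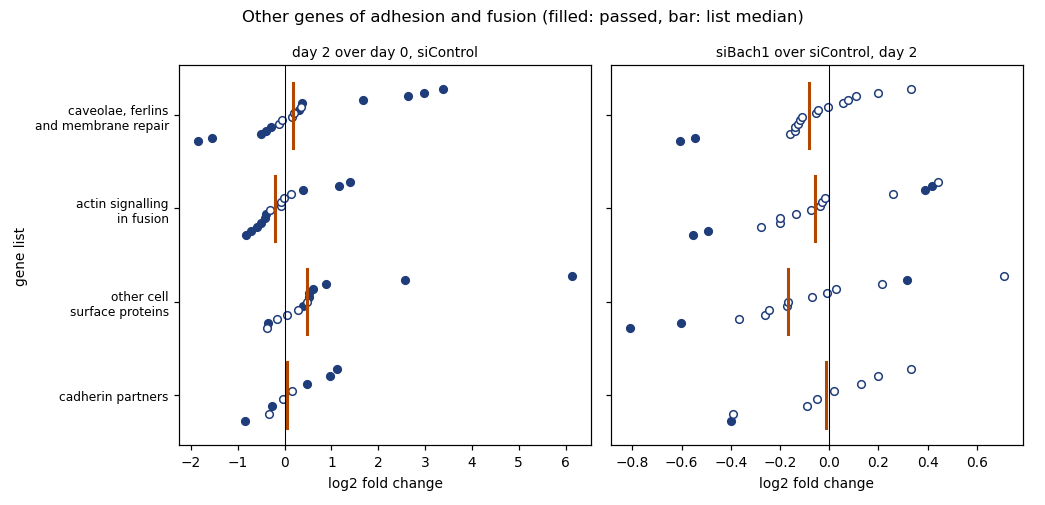
Log2 fold change of each tested gene of 4 lists, from day 0 to day 2 in siControl cells (left) and for siBach1 over siControl cells at day 2 (right). Filled points passed at an adjusted p under 0.05, and the orange bar is the list's median (left, from top to bottom, 0.18, -0.20, 0.47 and 0.06). Mymx at 6.14 is the point farthest right on the left side, and Cav1 and Cav2 are the points farthest left.

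The genes whose levels ran most like each member were taken by Pearson's correlation of log2 signal over the 12 arrays, a description in which the 4 conditions supply most of the spread. Mymk ran closest to the troponin genes Tnnc2 (r = 0.9991), Tnnt1 (0.9989) and Tnni2 (0.9987). Dysf ran closest to Cacna1s (0.9987), which encodes a calcium channel of muscle, then Fn3k and Pde4dip, Cav3 to Jsrp1 (0.9965), Aamdc and Gprc5c, and Ncam1 to the imprinted RNA H19 (0.9967), Vgll3 and Klhl31. Cdh15 ran closest to Purb (0.983), Lamtor4 and Tmem55a, and Cdh2 to Nisch (0.988), Sparc and Ndufa3. Jam2 ran with Vkorc1l1 (0.977), Naif1 and Zfp143, Myof with Acvr1 (0.970), Apol8 and Phc3, and Bin1 with 9930111J21Rik1 (0.940), LOC105242800 and Tmsb10. Among the members' brightest probes, Mymk, Dysf, Cav3 and Ncam1 had pairwise correlations of 0.981 to 0.993 over the 12 arrays. Cdh15 and Cdh2 ran at 0.942 with each other and Jam2 at -0.909 with Mymk and with Dysf.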

How the data were processed

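Each of the 12 C2C12 samples was hybridized to 1 single-colour Agilent array, giving 3 arrays per siRNA and day. The authors labelled RNA with Cyanine 3, scanned the arrays and deposited for each the Feature Extraction output (version 10.7.3.1 in the file header, 9.1 in the submitters' processing notes), where processed signals are background-subtracted intensities. A second deposited file lists 56745 probes with raw signals and log2 normalized values. Subtracting the 75th percentile of each array and then each probe's median rebuilt the latter to within 0.000338.

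Here log2 of the processed signal was used, without control and outlier spots (76 to 110 an array), with repeated spots averaged and each array's 75th percentile subtracted. Probes were tested if at least 1 group had all 3 arrays well above background, which left 29644 of 56553 probes. All comparisons came from a single limma 3.58.1 fit (R 4.3.3) of the 4 groups, and a probe passed at a Benjamini-Hochberg adjusted p under 0.05 over all tested probes. The fit was tested on simulated data. Files were read with Python 3.11 and pandas 2.3.3. Fold bounds for probes below background were the bright group's mean over the dimmer arrays' lowest signal well above background, or the probe's own where higher. The number of arrays limits the precision.

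The 9 members, the 4 lists and the marker lists were chosen with earlier results of these data known. Every member probe was described. From each list up to 4 genes a comparison were named, those with the largest change among genes that passed (1 is not reported here), and for each member the 3 tested probes of other symbols with the highest correlation. All 14 member probes with a RefSeq accession were found under the same symbol in the GRCm38.p6 table, and 4 had other accessions. Promoters came from RefSeq's GRCm38.p6, whereas the array design names an older build. Arrays with the same replicate number deviated together in all 18 pairs of arrays (r = 0.142 to 0.595, against -0.443 to 0.265 for 36 other pairs), and since they also shared slide and row, pairing and place cannot be told apart. Replicate as a block was therefore an alternative, beside quantile normalization, normexp background correction with an offset of 50 on median signals, the deposited normalized values, no filter and a strict filter, slide as a block, only the arrays compared, a robust trend prior, the methods' Student test, a 2-fold rule and each array left out.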

Additional observations from a re-analysis of the deposited data

Results flagged for a closer look

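For 4 member probes the effect of siBach1 at day 2 differed from that at day 0, by the limma test of the difference itself with Benjamini-Hochberg adjustment over all 29644 probes. Cdh15 A_51_P481930 gave -0.71 on the log2 scale (0.45 at day 0 and -0.26 at day 2). Cdh2 A_55_P2029711 gave -0.90 (0.82 and -0.08). Ncam1 A_52_P613255 gave -0.63 (0.21 and -0.42). Jam2 A_55_P2123496 gave 1.06 (-1.34 and -0.28). In each the 2 slides gave the same sign, which is no separate support because the probes were picked on these same arrays.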

How the results depend on the processing

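Of 1398 values of single member probes under other settings, 1243 kept their direction and their side of the threshold, 39 came to pass, 87 no longer passed and 29 changed sign. Of the 40 that passed, 1 changed sign, Myof on differentiation in siBach1 cells, which was 0.022 under quantile normalization. The other 28 sign changes were of values that had not passed. Under quantile normalization these were, for silencing at day 0, Dysf A_55_P1964183 (-0.011) and Bin1 A_55_P2073308 (-0.103), at day 2, Cdh2 (0.046), Ncam1 A_51_P380309 (0.030) and Dysf A_55_P1964183 (0.059), and for the difference of the silencing effects, Jam2 A_51_P418375 (0.086), Myof (0.046) and Dysf A_55_P1964183 (0.070). With normexp correction they were Ncam1 A_55_P2050602 (-0.003), Dysf A_55_P1964183 (-0.031) and Bin1 A_55_P2073308 (-0.069) at day 0 and Ncam1 A_52_P668157 (-0.009) at day 2. Leaving out each array gave, at day 0, -0.125 to 0.176 for Ncam1 A_55_P2050602, -0.161 to 0.157 for Dysf A_55_P1964183 and -0.069 to 0.103 for Bin1 A_55_P2073308. At day 2 it gave -0.039 to 0.139 for Jam2 A_51_P418375 and -0.029 to 0.150 for Bin1 A_52_P384956, and for the difference -0.120 to 0.058 for Jam2 A_51_P418375 and -0.188 to 0.130 for Dysf A_55_P1964183.

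The 5 member probes that passed for silencing at day 0 became 3 with no filter on dim probes, 3 in a fit of only the arrays compared, 2 with the methods' t-test once adjusted and 1 with the 2-fold rule. Each array left out gave 3 to 7, the 3 coming without siControl replicate 2 or siBach1 replicate 1 or 3. The 2 at day 2 became 0 with no filter (limma, with 4 at an unadjusted p under 0.05), 1 with only the arrays compared, 0 and 6 by the methods' t-test with and without adjustment and 0 with the 2-fold rule. They became 0 or 1 with each array left out, with 3 to 5 at an unadjusted p under 0.05. The 1 came without replicate 2 of siControl or of siBach1. For differentiation, 15 passed in siControl cells in each fit without an array, and the 14 in siBach1 cells became 11 to 13, and 9 with the 2-fold rule. The 4 for the difference became 0 with no filter (limma, with 8 at an unadjusted p under 0.05), 1 with the 2-fold rule and 1 to 3 with each array left out, the 1 coming without siControl day 0 replicate 3. The count was 2 without siControl day 0 replicate 2, siControl day 2 replicate 1 or 3, or siBach1 day 2 replicate 1 or 3. No share of all probes is given beside the counts at an unadjusted p, so they are no result about these genes.

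With replicate as a block 4 member probes passed at day 2, against 21.3% of all probes, and 7 for the difference, against 13%. For silencing at day 0, 7 passed, against 27.4% of all probes. For differentiation 15 passed in siControl and 15 in siBach1 cells, against 62.7% and 64%. Beyond the changes given in the report, the block changed no other call of a member probe. No filter means that 56553 in place of 29644 probes entered the adjustment. The cause of the other changes was not tested. Dim probes such as Cav3 at day 0, Dysf A_66_P123684 and Ncam1 A_52_P668157 limit the size of their changes.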

Other observations

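The 2 Ncam1 probes with accession NM_010875 and the 2 with NM_001113204 were set against each other within each array, a comparison chosen after their values were seen. The log2 ratio of the first pair's mean to the second's was higher at day 2 than at day 0 by 1.12 in siControl and by 1.38 in siBach1 cells, with every day 2 array above every day 0 array in both. Between the siRNA groups the ratio differed by -0.08 at day 0 and by 0.18 at day 2. These are given as a description with no test.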
